A study of Mus musculus with 12 samples.

Results

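The interaction of a Runx1 mutation with the loss of miR-146a was measured in sorted mouse blood progenitors, as the effect of the mutation on each gene in cells without miR-146a minus its effect in cells with miR-146a. All 12 RNA-seq libraries of the series entered the comparison, 3 for each of 4 genotypes, and 12744 of 24421 gene symbols passed the filter on low counts. The miR146aKO_Runx1mut group had the genotype miR-146aKO/Runx1S291fsX300 and carried both changes, and the miR146aKO group, titled Mir-146 KO/Empty, lacked miR-146a only. The Runx1mut group carried the frameshift allele Runx1S291fsX300 only, and the wildtype group, titled Empty, carried neither change. In all 4 groups, GFP-positive LSK cells, which lack lineage markers and carry Kit and Sca-1 as stem cells and early progenitors do, were sorted from bone marrow of secondary recipient mice engrafted with cells of that genotype. The labels do not say how the Runx1 mutation was introduced, what Empty stands for, the age of the mice, or whether a group's 3 libraries stem from 3 animals. The p-values therefore reflect the spread among these libraries alone. Libraries are named by the identifiers A001, A031 and A051 (miR146aKO_Runx1mut), A047, A150 and A151 (miR146aKO), A021, A042 and A058 (Runx1mut) and A015, A040 and A053 (wildtype).

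MicroRNAs of the miR-146 family pair through their seed, a short stretch near the 5′ end, with sites in messenger RNAs and lower the output of those messages. Their best known targets, Traf6, Irak1 and Irak2, relay signals from Toll-like and interleukin-1 receptors to NF-kB, so the microRNA acts as a brake on innate immune signalling. RUNX1 is a DNA-binding transcription factor that blood stem cells need to form and that megakaryocytes and lymphocytes need to mature, and it is often mutated in myeloid leukaemia and myelodysplasia.

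The mature microRNA that the knockout removes is shown with its near-identical family member and a site in each of the 3 best known targets. By the genotype label the knockout is of miR-146a, and the family member and the sites are shown for the seed. The microRNAs are RefSeq entries on GRCm38.p6, miR-146a-5p at chr11:43374435-43374456 (minus strand) and miR-146b-5p at chr19:46342790-46342811 (plus strand). Capitals mark the seed, bases 2 to 8, which both microRNAs share, and in the target sites the letters AGTTCTC that pair with it. Each site is the first such match in the longest 3′ untranslated region that GENCODE M21 gives for the gene.
mmu-miR-146a-5p: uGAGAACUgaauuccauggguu
mmu-miR-146b-5p: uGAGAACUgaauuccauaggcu
Traf6 site: tggtgttgAGTTCTCatttagtt
Irak1 site: gaggtcaaAGTTCTCatgcttgg
Irak2 site: aacctcttAGTTCTCcacaacgg
The letters AGTTCTC occurred 4 times in the Traf6 region, 2 times in Irak1 and 2 times in Irak2. They occurred at least once in 1482 of the 11653 tested genes with such a region (12.7%).

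The targeted genes gave only a partial check of the labels. Mir146 had 14 counts in A031, a library labelled miR146aKO_Runx1mut, and 0 in the other 11, including all 6 labelled as having miR-146a, and Mir146b had 0 in all 12. The counts in A031 go against its label, and a count of 0 elsewhere checks no label because libraries with miR-146a also had 0. Runx1 averaged 190 ± 69.5 CPM (counts scaled to a library's size) in miR146aKO_Runx1mut, 139 ± 36.3 in miR146aKO, 374 ± 211 in Runx1mut and 279 ± 69.8 CPM in wildtype (SD, n = 3 each). These counts do not separate the mutant from the normal transcript. Of the genes that define the gate, Kit was at 24.6 to 59.7 CPM in the miR146aKO libraries and at 100.6 to 711 CPM in the other 9. Ly6a, which encodes Sca-1, was at 505 to 1019 CPM in the miR146aKO libraries and at 12.1 to 222 CPM in the other 9, so both defining genes were detected in every library and set the miR146aKO libraries apart.

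Total counts ran from 3540043 to 7026393 per library, and the miR146aKO group, at 3540043 to 4353971, was the shallowest. Ribosomal RNA (Rn45s) made up 3.91% to 17.8% of them. Spread between libraries of a group was large, with a common biological coefficient of variation of 0.809. Levels of Y-linked genes (mean of Ddx3y, Eif2s3y, Kdm5d and Uty) also differed between libraries, at 3.45 to 53.5 CPM in miR146aKO_Runx1mut, 24.8 to 60.4 CPM in miR146aKO, 6.54 to 42.4 CPM in Runx1mut and 0.137 to 7.99 CPM in wildtype. The wildtype and miR146aKO ranges did not overlap. Xist, expressed from the inactive X of female cells, was at 704 to 4452 CPM in wildtype and 16.5 to 464 CPM in miR146aKO.

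Across the transcriptome, 3 of 12744 tested genes (0.0235%) had an interaction that passed the test, the quasi-likelihood test of edgeR with a threshold of 0.05 on the Benjamini-Hochberg adjusted p. They were Cd2, Dok3 and Hvcn1. With the Y-linked level as a covariate Cd2 was called, and Dok3 and Hvcn1 had Benjamini-Hochberg adjusted p of 0.302 and 0.344 in edgeR. That level separates wildtype from miR146aKO, so the covariate is partly confounded with genotype. All 3 interactions were negative: the double genotype had less of each transcript than the separate effects of the mutation and of miR-146a loss, added on the log2 scale, would give. In this filtered edgeR fit no gene passed with a positive interaction, and the smallest adjusted p on that side was 0.137, for Atg9b. The same edgeR test without the low-count filter called 89 positive and 179 negative genes, DESeq2 on the filtered counts called 60 positive and 108 negative genes, and limma-voom called 0 in either direction. At an unadjusted p under 0.05 there were 1206 genes (9.46%), where 637 would be 5% of those tested. Of these, 642 (5.04%) were negative and 564 (4.43%) were positive. Over all tested genes the interaction had a median of 0.03, quartiles of -0.98 and 0.87, and a median SE of 1.12 on the log2 scale. The median half-width of its unadjusted 95% interval was 2.40. For a typical gene, that interval could not tell an interaction smaller than about that size from 0. The adjusted test is stricter, and the smallest called interaction had a size of 4.07.

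**Figure D1:**
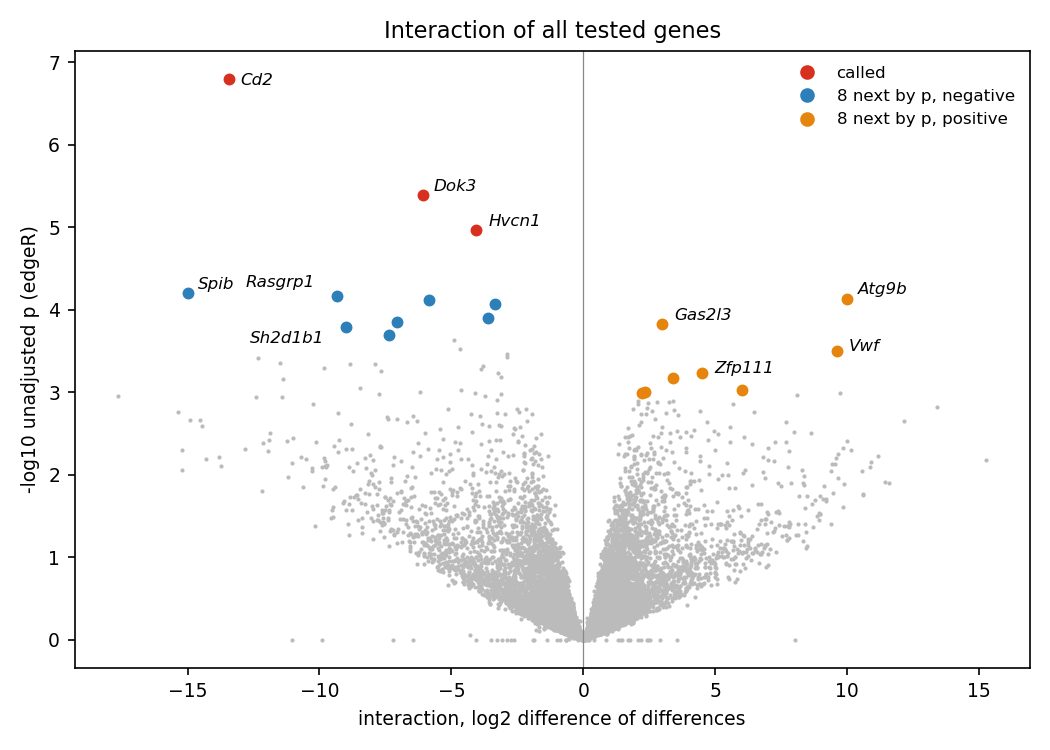
Interaction of each of the 12744 tested genes (horizontal axis, log2 difference of differences) against -log10 of its unadjusted edgeR p (vertical axis), with the 3 called genes in red and the 8 next genes by p on each side in blue and orange. Cd2, Dok3 and Hvcn1 lie on the negative side, with Cd2 at -13.41.

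The miR146aKO group stood apart from the rest more often than any other group. All 3 miR146aKO libraries lay above the other 9 libraries in 449 genes (3.52%) and below them in 361 (2.83%). For miR146aKO_Runx1mut these counts were 52 (0.408%) and 80 (0.628%), for Runx1mut 31 (0.243%) and 33 (0.259%), and for wildtype 160 (1.26%) and 82 (0.643%). Among the 642 genes with a negative interaction at an unadjusted p under 0.05, the miR146aKO libraries lay above all others in 213 (33.2%), and the wildtype libraries lay below all others in 44 (6.85%). Among the 564 positive ones the miR146aKO libraries lay below all others in 190 (33.7%), and the wildtype libraries lay above them in 40 (7.09%). These shares describe which group carries the difference of differences and were not tested, since the contrast chose the genes.

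Cd2 (chr3:101275899-101287939 on GRCm38, minus strand) encodes an adhesion and costimulatory receptor of lymphocytes. Its level was 0.172, 0.178 and 0.242 CPM in the double genotype, 95.5, 78.4 and 82.8 CPM in miR146aKO, 1.28, 0.996 and 3.94 CPM in Runx1mut and 0, 0 and 0.142 CPM in wildtype. The miR146aKO libraries were far above all others and Runx1mut came next, while each library of the double genotype and 1 of wildtype held a single count. Summed over 3 libraries, these levels rest on 3 counts in the double genotype, 966 in miR146aKO, 39 in Runx1mut and 1 in wildtype.

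In bulk RNA of sorted cells, fewer cells of a type and less RNA per cell cannot be told apart, for Cd2 and for every gene below. In miR146aKO it rose over wildtype, by 10.16 ± 1.11 in log2 units (SE; edgeR, Benjamini-Hochberg adjusted p = 0.00344), a contrast in which 23 genes (0.18%) were called. Runx1mut over wildtype differed by 4.79 ± 1.00 without passing the test (edgeR, Benjamini-Hochberg adjusted p = 0.357). In the double genotype Cd2 fell by 8.62 ± 1.02 relative to miR146aKO (edgeR, Benjamini-Hochberg adjusted p = 0.00756), a contrast in which 2 genes (0.0157%) were called, and relative to Runx1mut it differed by -3.26 ± 0.89 without passing the test.
The resulting interaction was -13.41 ± 1.40 (SE, 95% interval -16.43 to -10.40; edgeR, Benjamini-Hochberg adjusted p = 0.00202). With the group totals of at most 3 counts set to a floor of 3 counts per group, the same difference of differences was -12.40, so the fitted value depends on how near-zero counts are treated. The summed count ratio of the double genotype to miR146aKO was 0.00228 (95% exact interval 0.000469 to 0.00667), and that of Runx1mut to wildtype was 36.9 (6.24 to 1493). These intervals and floors cover counting error only and leave out the spread between libraries. The intervals treat reads as independent, which amplified reads are not, so they may be too narrow even for counting error. Cd2 was also called without A031, the library labelled miR146aKO_Runx1mut with Mir146 counts, at -13.35 (edgeR, Benjamini-Hochberg adjusted p = 0.0164), and without each of the other 11 libraries in turn.

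Dok3 (chr13:55523231-55529296, minus strand) encodes an adaptor that dampens signalling from immunoreceptors in B cells and macrophages. It was at 20.2, 24.7 and 32.7 CPM in the double genotype, 98.9, 69.4 and 82.5 in miR146aKO, 117, 28.3 and 62.4 in Runx1mut and 1.92, 4.0 and 3.99 CPM in wildtype. The wildtype libraries lay below all the others, the double genotype lay below miR146aKO without overlap, and its highest library overlapped Runx1mut. Without overlap, the double genotype lay below miR146aKO in 9.81% of tested genes. Relative to wildtype, Dok3 rose in miR146aKO, by 4.66 ± 0.64 in log2 units (SE; edgeR, Benjamini-Hochberg adjusted p = 0.0166), and the Runx1mut difference of 4.39 ± 0.63 did not pass (edgeR, Benjamini-Hochberg adjusted p = 0.0830). The double genotype differed from miR146aKO by -1.69 ± 0.56 and from Runx1mut by -1.42 ± 0.55, neither of which passed. Dok3 had an interaction of -6.08 ± 0.84 (SE, 95% interval -7.88 to -4.29; edgeR, Benjamini-Hochberg adjusted p = 0.0257). This call was lost when any 1 of 11 libraries was left out, with interactions of -6.29 to -5.47, among them A031 (-6.05; edgeR, Benjamini-Hochberg adjusted p = 0.0684), and it held without A042. Each such fit also repeated the low-count filter, so the set of tested genes changed along with the library.

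Hvcn1 (chr5:122206804-122242297, plus strand) encodes the voltage-gated proton channel that sustains the oxidative burst of phagocytes and also acts in B cells. Its level was 79.1, 35.4 and 59.4 CPM in the double genotype, 143, 259 and 222 in miR146aKO, 72.5, 75.7 and 57.8 in Runx1mut and 10.4, 18.7 and 14.8 CPM in wildtype. The miR146aKO libraries were the highest and the wildtype libraries the lowest, each without overlap, while the double genotype and Runx1mut shared one range. Hvcn1 rose in miR146aKO relative to wildtype, by 3.83 ± 0.47 in log2 units (SE; edgeR, Benjamini-Hochberg adjusted p = 0.00634), and differed by 2.23 ± 0.44 in Runx1mut (edgeR, Benjamini-Hochberg adjusted p = 0.288). The double genotype differed from miR146aKO by -1.84 ± 0.43 and from Runx1mut by -0.25 ± 0.42. Hvcn1 had an interaction of -4.07 ± 0.61 (SE, 95% interval -5.39 to -2.76; edgeR, Benjamini-Hochberg adjusted p = 0.0457). This call was lost when any 1 of the 12 libraries was left out (-4.37 to -3.82), without A031 at -3.82 (edgeR, Benjamini-Hochberg adjusted p = 0.0778). Here too each fit repeated the low-count filter and changed the set of tested genes. Hvcn1 overlaps Tctn1 on the other strand, and because the libraries do not keep strand, reads of the overlap cannot be told apart.

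**Figure D2:**
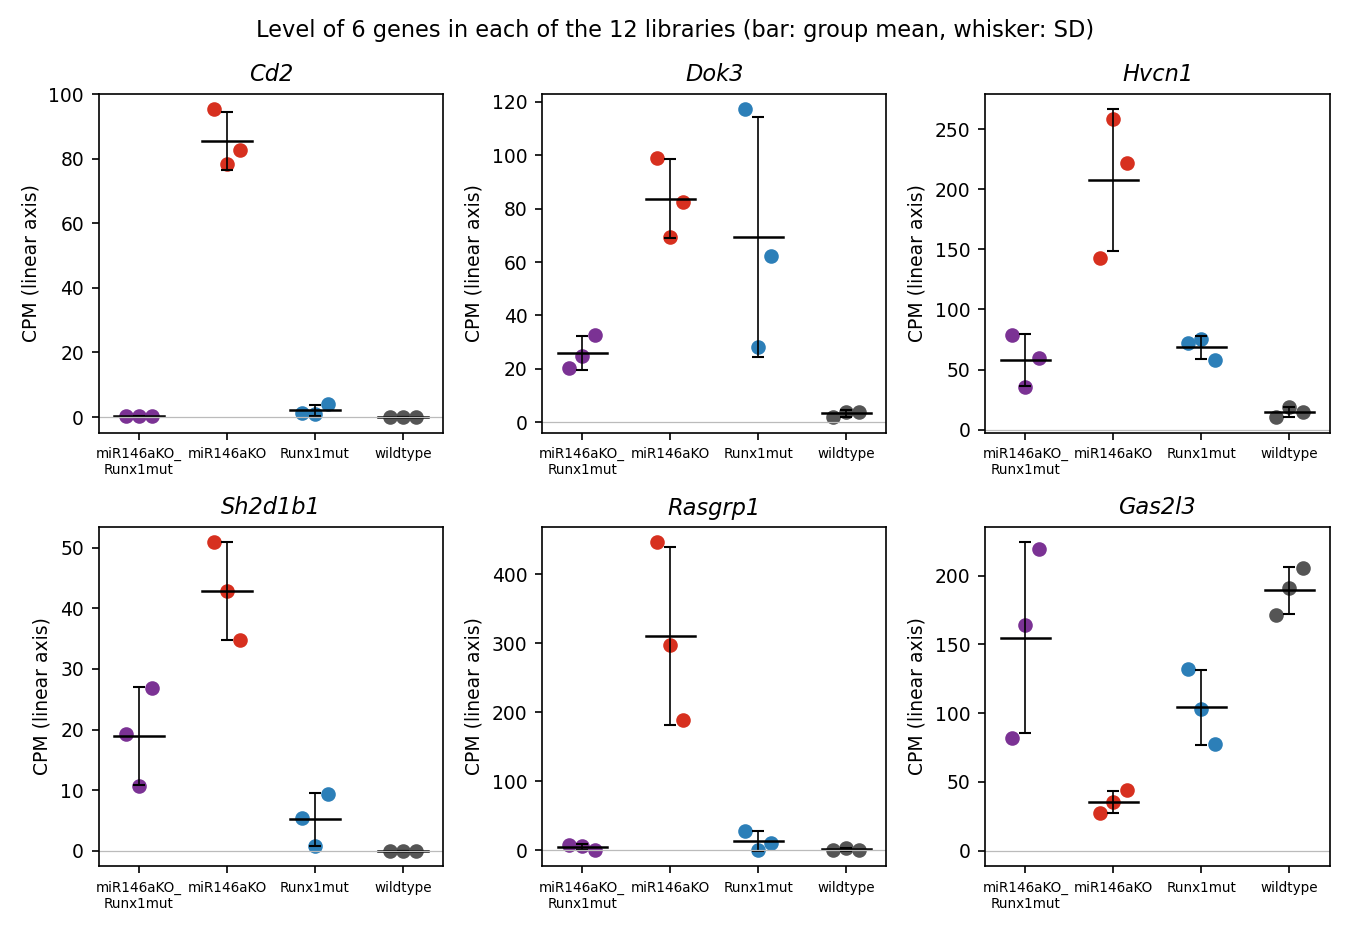
Level of 6 genes in CPM (vertical axes, linear, 1 panel per gene) in each of the 12 libraries (points) of the 4 groups, with the group mean (bar) and SD (whisker). In the panels of Cd2, Hvcn1, Sh2d1b1 and Rasgrp1 the miR146aKO points are the highest, at 78.4 CPM or more for Cd2, and in that of Gas2l3 they are the lowest, at 27.2 to 43.8 CPM.

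A difference of differences depends on the scale it is taken on, so the double genotype was also set beside what additivity in CPM would give. For Cd2, addition of the separate differences in CPM gives 87.6 CPM in the double genotype, whereas 0.197 ± 0.0391 CPM were measured (SD, n = 3). Addition on the log2 scale gives no firm level for Cd2, because it multiplies by the ratio of Runx1mut to wildtype, which rests on 1 wildtype count. For Dok3, addition in CPM and on the log2 scale gives 150 and 1758 CPM, against 25.9 ± 6.37 CPM measured. For Hvcn1 these values were 262 and 975 CPM, against 57.9 ± 21.9 CPM. The 3 measured levels thus lay below additivity on either scale, with CPM-scale interactions of -87.4 ± 5.20, -124 ± 27.6 and -204 ± 37.0 CPM (SE). Over all tested genes, the sign of the interaction differed between the log2 and the CPM scale in 882 (6.92%).

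With miR-146a present, Cd2, Dok3 and Hvcn1 had higher values in Runx1mut than in wildtype, by differences that did not pass the test. With miR-146a absent, all 3 had lower values in the double genotype than in miR146aKO, a difference that passed for Cd2 only. The interaction is the test of how far these differences depart from each other.

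Start-site windows were searched for the letters that RUNX proteins are known to bind, because Runx1 is the mutated factor. RefSeq promoter windows (GRCm38.p6, 250 bases before to 50 after a start) were matched for 12 of the 19 genes made up of the 3 called genes and the 16 described next, giving 14 windows. TGTGGT or TGCGGT, on either strand, occurred in 4 of 14 (28.6%), against 7362 of 32851 windows in all (22.4%). The windows with a match belonged to Dok3, Sh2d1b1, Gas2l3 and Tmem40. The window of Dok3, the called gene with a match, and that of Sh2d1b1, a signalling adaptor described next, are shown with the match in capitals. Dok3 has TGCGGT on the gene's strand at positions 14 to 19 after the start, and Sh2d1b1 has TGTGGT on the opposite strand, read here as ACCACA, at -54 to -49. A match of these letters is a description of the sequence and no evidence of binding.
Dok3, chr13:55528489-55528788, minus strand: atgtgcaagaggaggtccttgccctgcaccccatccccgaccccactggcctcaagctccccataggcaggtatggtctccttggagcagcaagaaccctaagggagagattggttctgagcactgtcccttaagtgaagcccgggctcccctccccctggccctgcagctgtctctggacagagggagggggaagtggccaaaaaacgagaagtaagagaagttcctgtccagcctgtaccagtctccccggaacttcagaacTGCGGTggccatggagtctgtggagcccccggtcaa
Sh2d1b1, chr1:170277068-170277367, plus strand: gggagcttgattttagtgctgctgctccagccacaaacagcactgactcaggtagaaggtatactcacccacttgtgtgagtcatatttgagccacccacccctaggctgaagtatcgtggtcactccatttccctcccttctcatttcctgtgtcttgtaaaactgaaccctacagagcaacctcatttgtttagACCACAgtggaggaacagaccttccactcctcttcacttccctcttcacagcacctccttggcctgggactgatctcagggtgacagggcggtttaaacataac

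The 8 genes next in order of p on the negative side, among those with a mean log2 CPM of at least 2, did not pass the test. Sh2d1b1, Rasgrp1, Grap, Spib and Gimap3 act in lymphocytes, as the adaptor EAT-2 of SLAM-family receptors, a Ras activator downstream of antigen receptors, a Grb2-like adaptor, a B cell and plasmacytoid dendritic cell transcription factor and a GTPase of lymphocyte survival. Ero1lb encodes an oxidase of the endoplasmic reticulum, Ext2 an enzyme of heparan sulfate synthesis, and Card6 a protein with a caspase recruitment domain. In all 8 the 3 miR146aKO libraries lay above the other 9, as they did in 3.52% of tested genes. The contrast that chose these genes subtracts miR146aKO, so this count is no independent evidence.

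Sh2d1b1 was at 19.3, 10.7 and 26.9 CPM in the double genotype, 50.9, 42.8 and 34.8 in miR146aKO, 5.39, 0.711 and 9.41 in Runx1mut and 0 in each wildtype library. It had no count in wildtype, which allows a total of up to 3, was low in Runx1mut and highest in miR146aKO, and the double genotype lay between them without overlap. Runx1mut lay above wildtype without overlap in 5.72% of tested genes, and the double genotype lay above Runx1mut in 3.85%. Its fitted interaction of -9.0 (edgeR, Benjamini-Hochberg adjusted p = 0.170) depends on the zero counts of wildtype, and with a floor of 3 counts per group it was -6.16. Rasgrp1 was at 7.41, 6.40 and 0.485 CPM in the double genotype, 446, 297 and 189 in miR146aKO, 28.4, 0.996 and 11.3 in Runx1mut and 0.274, 3.55 and 0.427 CPM in wildtype. Outside miR146aKO its groups overlapped, and the interaction was -9.35 ± 1.68 (SE; edgeR, Benjamini-Hochberg adjusted p = 0.137). Grap averaged 36.6 ± 24.9 CPM in the double genotype, 369 ± 240 in miR146aKO, 39.9 ± 23.2 in Runx1mut and 2.96 ± 4.11 CPM in wildtype (SD, n = 3 each), and its interaction was -7.05 ± 1.36. It overlaps Slc5a10 on the other strand.

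Spib rested on 1 count in the double genotype, 2088 in miR146aKO, 53 in Runx1mut and 3 in wildtype. Its 53 counts in Runx1mut came from the library A058 alone, and its interaction of -14.99 ± 2.67 was -13.95 with the floor of 3 counts per group, -7.96 without A058 and -23.03 with the Y-linked covariate. Gimap3 was at 0.172, 0.888 and 12.6 CPM in the double genotype, 419, 301 and 214 in miR146aKO, 4.68, 19.1 and 6.67 in Runx1mut and 6.98, 2.22 and 3.70 CPM in wildtype. Only the miR146aKO libraries stood apart for Gimap3, with an interaction of -7.35 ± 1.48. Card6 had an interaction of -5.86 ± 1.06, Ero1lb of -3.59 ± 0.69 and Ext2, which overlaps Alx4 on the other strand, of -3.36 ± 0.62. Ext2 averaged 35.5 ± 20.5 CPM in the double genotype, 509 ± 126 CPM in miR146aKO, 52.2 ± 12.3 CPM in Runx1mut and 73.0 ± 8.82 CPM in wildtype (SD, n = 3 each). Of these 8 genes it was the one whose Runx1mut mean lay below its wildtype mean, by a difference that did not pass the test. Ext2 and Cd2 were the 2 genes called between the double genotype and miR146aKO. For Ext2 that difference was -3.84 ± 0.48 (SE; edgeR, Benjamini-Hochberg adjusted p = 0.00756).

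The 8 genes next in order of p on the positive side also did not pass. In 5 of them, Atg9b, Gas2l3, Zfp111, Tmem40 and Ogfrl1, the miR146aKO libraries lay below all the others, as they did in 2.83% of tested genes. Here too the contrast that chose the genes favours such a count. Gas2l3, a linker of actin and microtubules with a role in cell division, was at 81.8, 164 and 219 CPM in the double genotype, 27.2, 35.3 and 43.8 in miR146aKO, 132, 103 and 77.7 in Runx1mut and 171, 191 and 205 CPM in wildtype. The double genotype lay above miR146aKO without overlap, as it did in 9.45% of tested genes, and overlapped Runx1mut and wildtype. The interaction was 2.99 ± 0.58 (SE, 95% interval 1.74 to 4.24; edgeR, Benjamini-Hochberg adjusted p = 0.170). Ogfrl1 averaged 278 ± 6.83 CPM in the double genotype, 73.7 ± 1.80 CPM in miR146aKO, 218 ± 75.3 CPM in Runx1mut and 293 ± 141 CPM in wildtype (SD, n = 3 each), and its interaction was 2.34 ± 0.56.

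Vwf, which encodes the clotting protein von Willebrand factor and marks platelet-biased stem cells, was at 1.03, 66.6 and 93.1 CPM in the double genotype, 7.59, 1.45 and 1.95 in miR146aKO, 0.568, 8.68 and 2.40 in Runx1mut and 410, 188 and 18.9 CPM in wildtype. Both single genotypes lay below wildtype without overlap, and the double genotype was split, with A001 in the range of the single genotypes and A031 and A051 well above it. The interaction was 9.60 ± 2.03 (edgeR, Benjamini-Hochberg adjusted p = 0.255). Without overlap, Runx1mut lay below wildtype in 6.41% of tested genes and miR146aKO lay below wildtype in 10.3%. Atg9b, an autophagy gene that overlaps Nos3 on the other strand, was at 26.5, 3.91 and 4.12 CPM in the double genotype, 0.316, 0.242 and 0.243 in miR146aKO, 0.851, 1.71 and 1.88 in Runx1mut and 6.43, 92.8 and 16.2 CPM in wildtype. Its groups ascended without overlap through miR146aKO, Runx1mut and the double genotype, which overlapped wildtype, and the interaction was 10.01 ± 1.81 (edgeR, Benjamini-Hochberg adjusted p = 0.137). Zfp111, Ociad2 and Qser1 had interactions of 4.52 ± 1.02, 3.40 ± 0.78 and 2.22 ± 0.54. Tmem40 depended on the scale, at 6.01 ± 1.44 on the log2 scale and -2.23 ± 17.8 on the CPM scale, where its summed counts were 164 in the double genotype, 1 in miR146aKO, 810 in Runx1mut and 556 in wildtype.

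**Figure D3:**
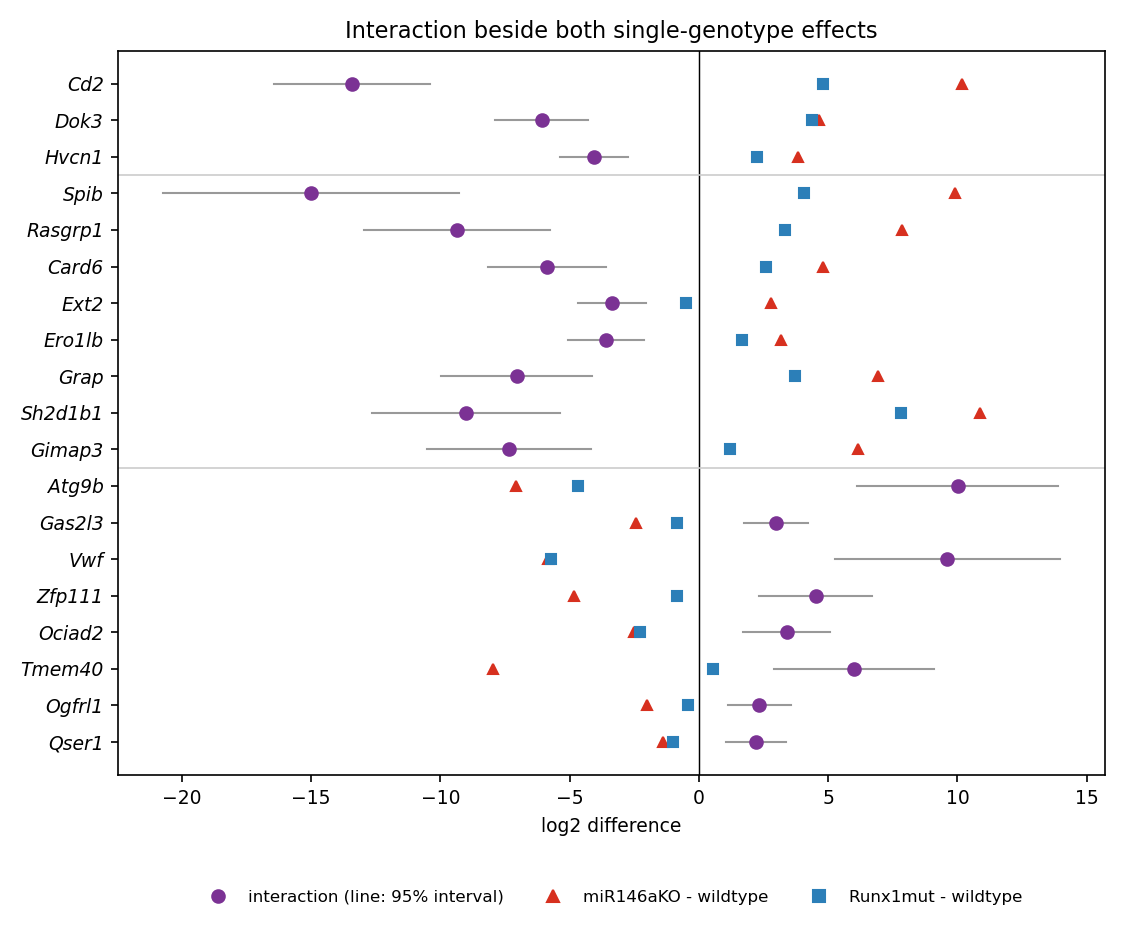
Interaction with its 95% interval (circle and line), difference of miR146aKO from wildtype (triangle) and difference of Runx1mut from wildtype (square), all as log2 differences on the horizontal axis, for the 3 called genes (top block) and the 8 next genes on the negative (middle) and positive side (bottom). Circles and triangles lie on opposite sides of 0 in all 19 genes, and the squares lie on the triangles' side except for Ext2 (-0.48) and Tmem40 (0.55). The interaction subtracts both plotted differences and its p chose the genes, so this opposition is partly fixed in advance and is no independent evidence.

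Among direct targets of miR-146a, 15 of the 16 listed were tested and 0 were called, 9 were on the negative side and 1, Irak2, had an unadjusted p under 0.05. Their median interaction was -0.54, beside 0.03 over all tested genes, of which 49.1% were negative and 5.04% negative at an unadjusted p under 0.05. It was -0.18 without A040, -0.82 without A031 and 0.0083 with the Y-linked covariate. Traf6, the ubiquitin ligase of the pathway, had an interaction of 0.74 (95% interval -0.60 to 2.09), and the kinase gene Irak1 had 0.33 (-0.88 to 1.54). These intervals include 0 but do not show that the genes behaved additively. Irak2 was at 2.24, 17.9 and 18.4 CPM in the double genotype, 51.5, 33.4 and 47.5 in miR146aKO, 10.1, 16.2 and 34.7 in Runx1mut and 5.88, 2.66 and 7.83 CPM in wildtype. It was highest in miR146aKO, where the lowest library lay below the highest of Runx1mut. The interaction was -3.66 ± 1.17 (SE; edgeR, Benjamini-Hochberg adjusted p = 0.352). The seed match AGTTCTC, found in 9 of the 15 tested targets, was in none of Cd2, Dok3 and Hvcn1, in 1 of the next 8 negative genes (Spib) and in 2 of the next 8 positive genes (Zfp111 and Qser1). The searched region had 58 bases in Cd2, 187 in Dok3 and 1625 in Hvcn1. In regions as short as those of Cd2 and Dok3, the absence of a match says little.

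Runx1 itself had an interaction of 0.03 (95% interval -1.29 to 1.36), which was 0.94 with the Y-linked covariate and -0.28 to 0.58 with 1 library left out. Among 29 tested of 31 listed RUNX1 targets, 20 were on the positive side and 3 on each side had an unadjusted p under 0.05. Of all tested genes, 4.43% were positive and 5.04% negative at that threshold. The median over the targets was 0.65. That median was 0.22 without A040, 1.10 without A058 and 1.21 without A047. The members pointed in different directions. Ets1, a lymphoid transcription factor, was at 163 to 261 CPM in miR146aKO and at 5.33 to 30.5 CPM in the other 9 libraries, with an interaction of -3.79 ± 0.84. Nfe2, a megakaryocytic and erythroid transcription factor, was at 7.90 to 28.8 CPM in miR146aKO and at 55.7 to 212 CPM in the other 9, with an interaction of 2.51 ± 0.79. Neither passed the test.

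Genes of innate immune signalling were described next. Of all tested genes, 5.04% were negative and 4.43% positive at an unadjusted p under 0.05. Of 33 tested of 34 Toll-like and interleukin-1 receptor genes, 24 were negative and 6 of those had an unadjusted p under 0.05, with a median of -0.93 that was -0.57 without A015 and -1.48 without A040. Tlr1, a receptor for bacterial lipopeptides, was at 20.0, 5.33 and 28.6 CPM in the double genotype, 6.32, 93.9 and 103 in miR146aKO, 13.9, 0.285 and 39.7 in Runx1mut and 0.137, 0 and 0 CPM in wildtype. All 3 altered genotypes lay above wildtype and overlapped one another. Its interaction was -9.83 ± 2.19 (edgeR, Benjamini-Hochberg adjusted p = 0.264), or -8.81 with the floor of 3 counts per group. Il1r1, the interleukin-1 receptor, went the other way at 4.43 ± 1.14, with 59.8 ± 33.9 CPM in the double genotype, 7.53 ± 4.51 in miR146aKO, 23.5 ± 26.7 in Runx1mut and 63.4 ± 26.1 CPM in wildtype (SD, n = 3 each).
Among 28 tested of 31 NF-kB response genes, 22 were negative and 7 of those had an unadjusted p under 0.05 (median -1.08, and -1.80 without A015). Their list level, the mean log2 CPM over tested members, was 4.07, 3.78 and 3.82 in the double genotype, 4.73, 4.99 and 4.96 in miR146aKO, 3.02, 3.47 and 3.75 in Runx1mut and 3.68, 3.00 and 3.13 in wildtype. Every miR146aKO library lay above every other library by this measure. Ptgs2 was the 1 positive member of this list at an unadjusted p under 0.05. It had no count in miR146aKO, and its interaction of 11.45 ± 3.88 did not pass the test. With the floor of 3 counts per group that interaction was 7.88. Immediate early genes, which signalling switches on within minutes, had 21 of 24 tested members (25 listed) on the negative side, 6 of them at an unadjusted p under 0.05, and a median of -1.52 that was -0.80 without A042. Among their positive members, 1 had such a p. Egr3 had an interaction of -8.86 ± 1.95, with 3.03 ± 4.31 CPM in the double genotype, 37.7 ± 23.7 in miR146aKO, 17.4 ± 16.7 in Runx1mut and 0.414 ± 0.492 CPM in wildtype, and Btg2 had -3.59 ± 1.04.

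The 3 called genes belong to a list of immunoreceptor signalling genes. Of its 52 members 50 were tested, 47 were on the negative side, 16 of those had an unadjusted p under 0.05 and 3 were called, with a median of -1.74. Of all tested genes, 5.04% were negative at an unadjusted p under 0.05. The immunoreceptor list was drawn up with these interactions known, so its counts are no independent evidence of direction. Leaving out any 1 library kept the median between -2.13 and -1.50. Its level was 5.18, 5.08 and 5.46 in the double genotype, 6.24, 6.75 and 6.74 in miR146aKO, 5.11, 4.61 and 5.42 in Runx1mut and 3.80, 4.02 and 4.21 in wildtype. The wildtype libraries were lowest and the miR146aKO libraries highest, each without overlap, and the double genotype and Runx1mut overlapped in between.

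Genes of antigen presentation and of B cells had their highest values in miR146aKO. All 10 listed MHC class II genes were tested and negative, 7 of them at an unadjusted p under 0.05, with a median of -3.72 that stayed between -4.39 and -2.92 whichever library was left out. H2-Ab1, a class II beta chain, was at 42.6, 317 and 182 CPM in the double genotype, 649, 4241 and 3268 in miR146aKO, 154, 71.0 and 363 in Runx1mut and 235, 81.9 and 146 CPM in wildtype, an interaction of -4.26 ± 1.11. Only miR146aKO stood apart for it. Of 20 B lineage genes, 19 were tested, all on the negative side and 10 at an unadjusted p under 0.05, with a median of -4.68 and with miR146aKO above the other 9 libraries in 11. That median was -2.14 without A058. Over all tested genes, 5.04% were negative at an unadjusted p under 0.05, and miR146aKO lay above the other 9 libraries in 3.52%. The low-count filter can pass a gene expressed in the miR146aKO libraries alone, and the contrast subtracts that group. B lineage genes high there thus tend to the negative side, so these counts are no independent evidence of direction. Cd79b, which signals for the B cell receptor, was at 45.8, 37.3 and 41.9 CPM in the double genotype, 129, 617 and 751 in miR146aKO, 17.9, 12 and 74.4 in Runx1mut and 16.6, 20.2 and 11.7 CPM in wildtype, an interaction of -4.68 ± 0.98.

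The gate excludes lineage-positive cells, yet B cell markers were measured. The summed level of the 19 tested B lineage markers was 201 to 1192 CPM in the double genotype, 8878 to 15822 CPM in miR146aKO, 92.5 to 1801 CPM in Runx1mut and 93.4 to 1310 CPM in wildtype, and Pax5 was at 0 in wildtype. The part of B lineage RNA in the interactions above was not tested.

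T and NK cell genes differed between the 3 miR146aKO libraries. Of 21 listed, 13 were tested, 12 were negative and 8 of those had an unadjusted p under 0.05, as did the 1 positive member. Of all tested genes, 5.04% were negative at that threshold. The list median of -6.30 was -4.04 without A047. As for B lineage genes, the filter and the contrast favour the negative side for genes high in miR146aKO alone. The counts are therefore no independent evidence of direction. Cd3e, a chain that T cell receptors need, had 0.172 to 1.42 CPM in the double genotype, 644 (A047), 8.71 and 2.68 CPM in miR146aKO, 0 to 2.84 CPM in Runx1mut and 0.137 to 0.222 CPM in wildtype. The summed level of the 13 tested markers was 149 to 699 CPM in the double genotype, 219 to 2471 CPM in miR146aKO, 131 to 265 CPM in Runx1mut and 131 to 373 CPM in wildtype. Cd3g, Cd8a and Gzma were at 0 in the double genotype and Gzma at 0 in wildtype. The part of T cell RNA in the interactions above was not tested.
Among 18 lymphoid priming genes, all tested, 14 were negative and 4 of those had an unadjusted p under 0.05 (median -0.90, and -1.50 without A053). Ikzf3, a lymphoid transcription factor, had 613 to 1171 CPM in miR146aKO and at most 120 CPM in the other 9 libraries (interaction -10.27 ± 2.59).

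Members of myeloid lists lay on both sides. Dendritic genes had 7 of 10 tested members (14 listed) on the negative side (median -0.87), monocyte and macrophage genes 15 of 24 (26 listed, median -1.03), and neutrophil genes 13 of 22 (23 listed, median -0.84). Leaving out 1 library moved these medians over wide ranges, to -1.58 without A051 and -0.04 without A058 for dendritic genes, to -2.44 without A051 and -0.29 without A058 for macrophage genes, and to -2.19 without A051 and 0.95 without A021 for neutrophil genes. C1qb, a complement gene of macrophages, was at 152, 132 and 1085 CPM in the double genotype and 42.4, 1296 and 826 in miR146aKO, against 3.83, 0.854 and 1.54 in Runx1mut and 0.821, 36.6 and 0.427 CPM in wildtype. Adgre1, the macrophage gene of smallest p, was at 10.7, 8.88 and 57.7 CPM in the double genotype. It was at 11.1, 285 and 220 CPM in miR146aKO, 3.12, 1.28 and 13.3 in Runx1mut and 0.274, 1.55 and 4.70 in wildtype. For Adgre1 the double genotype and miR146aKO thus overlapped Runx1mut, and its interaction of -4.16 ± 1.68 did not pass the test. The median difference of macrophage genes was 3.44 for the double genotype over Runx1mut and 4.29 for miR146aKO over wildtype, beside 4.80 and 4.67 for stromal and endothelial genes and 4.44 and 2.21 for erythroid genes. These medians describe the lists and are not tests. The summed level of the macrophage genes was 3272 to 13700 CPM in the double genotype, 2422 to 19804 CPM in miR146aKO, 391 to 1804 CPM in Runx1mut and 534 to 1837 CPM in wildtype.

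**Figure D4:**
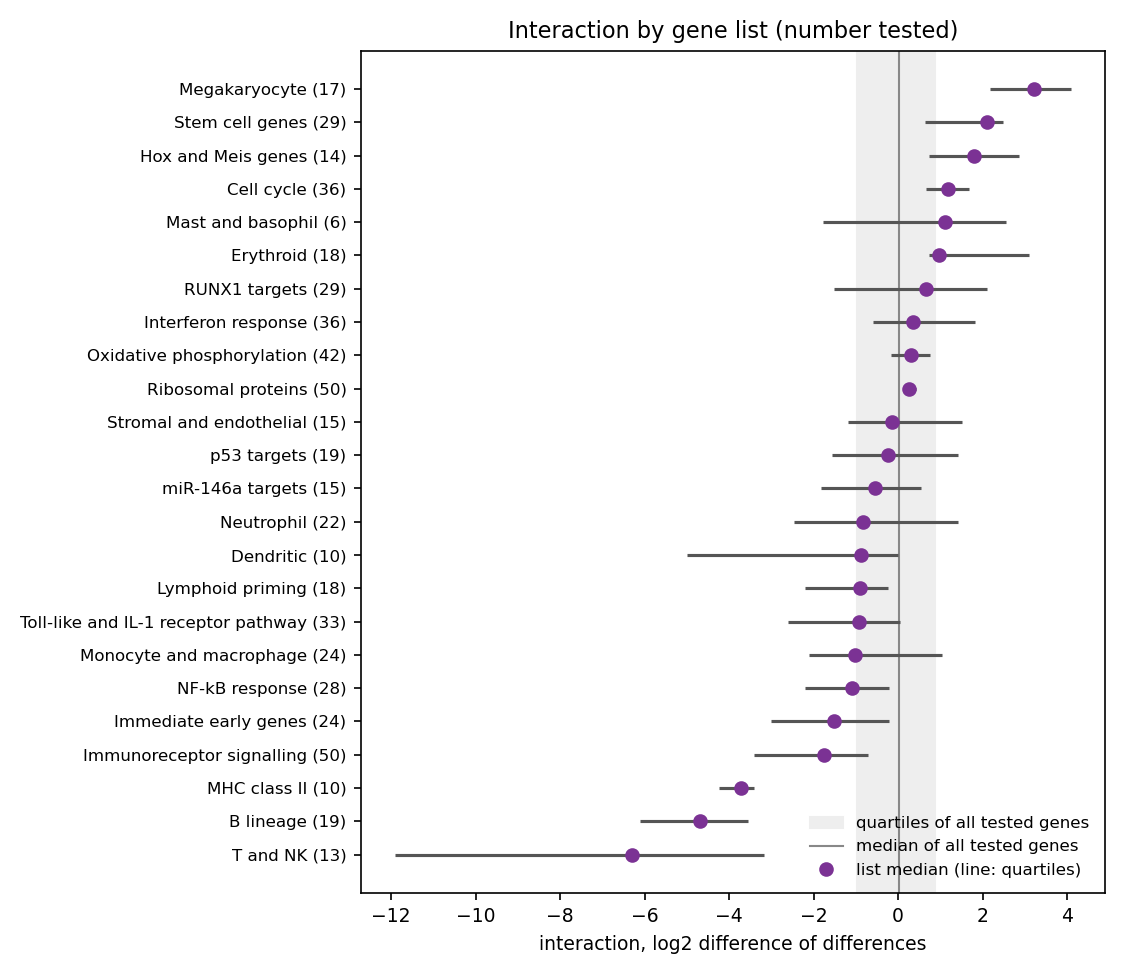
Median interaction (point, log2 difference of differences) and quartiles (line) of the tested members of each of 24 gene lists, with the number tested in brackets, beside the median and quartiles of all tested genes (grey line and band). The medians run from -6.30 for T and NK genes to 3.22 for megakaryocyte genes.

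On the positive side stood genes of stem cells, megakaryocytes and proliferation. Of all tested genes, 4.43% were positive at an unadjusted p under 0.05. Of 19 megakaryocyte genes 17 were tested, 14 were positive and 6 of those had an unadjusted p under 0.05, with a median of 3.22 that stayed between 2.66 and 3.80 whichever library was left out. Gp1bb, a platelet glycoprotein, was at 0, 44.4 and 28.4 CPM in the double genotype, 0, 0.726 and 0 in miR146aKO, 0.142, 0.569 and 0.855 in Runx1mut and 4.10, 1.78 and 0 CPM in wildtype, with an interaction of 8.34 ± 2.92. Within the double genotype its counts came from A031 and A051, and A001 had 0. The summed level of the 17 tested markers had the widest range in the double genotype, at 130 to 3920 CPM, against 283 to 331 CPM in miR146aKO, 367 to 3642 CPM in Runx1mut and 792 to 2941 CPM in wildtype. Only miR146aKO was uniformly low.
Stem cell genes had 26 of 29 members on the positive side, 5 of them at an unadjusted p under 0.05, and a median of 2.10. That median was 0.01 without A031, 1.29 without A015 and 3.76 without A042. On the negative side, 1 member had an unadjusted p under 0.05, the gate gene Ly6a, at -3.86 ± 1.27. The other gate gene, Kit, was positive at 2.23 ± 0.90, and neither passed the test. The level of the stem cell genes was 2.04, 5.70 and 2.92 in the double genotype, 4.63, 3.40 and 3.71 in miR146aKO, 3.02, 6.28 and 3.76 in Runx1mut and 7.53, 6.44 and 5.58 in wildtype. A031 was the single high library of the double genotype, as A042 was of Runx1mut, and both reached the wildtype range. Hox and Meis genes, which maintain immature blood cells, had 13 of 14 tested members (19 listed) on the positive side, none at an unadjusted p under 0.05, and a median of 1.79 (1.05 without A015, 3.82 without A042).

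All 36 cell cycle genes were tested and 34 were positive. Of those, 10 had an unadjusted p under 0.05, where 4.43% of all tested genes were positive at that threshold. The cell cycle genes had a median of 1.17 that stayed between 0.86 and 1.54 whichever library was left out. Their level was 7.26, 6.40 and 7.05 in the double genotype, 5.55, 5.64 and 5.33 in miR146aKO, 7.40, 6.43 and 6.83 in Runx1mut and 5.61, 6.97 and 6.99 in wildtype. The miR146aKO libraries lay below the double genotype and Runx1mut without overlap and overlapped A015 of wildtype. Cenpf, a kinetochore gene of mitosis, was at 492, 253 and 224 CPM in the double genotype, 59.7, 55.2 and 49.7 in miR146aKO, 283, 218 and 176 in Runx1mut and 98.5, 252 and 282 CPM in wildtype, an interaction of 2.46 ± 0.62. Tpx2, a spindle assembly gene, had 2.84 ± 0.91. Neither passed the test.

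**Figure D5:**
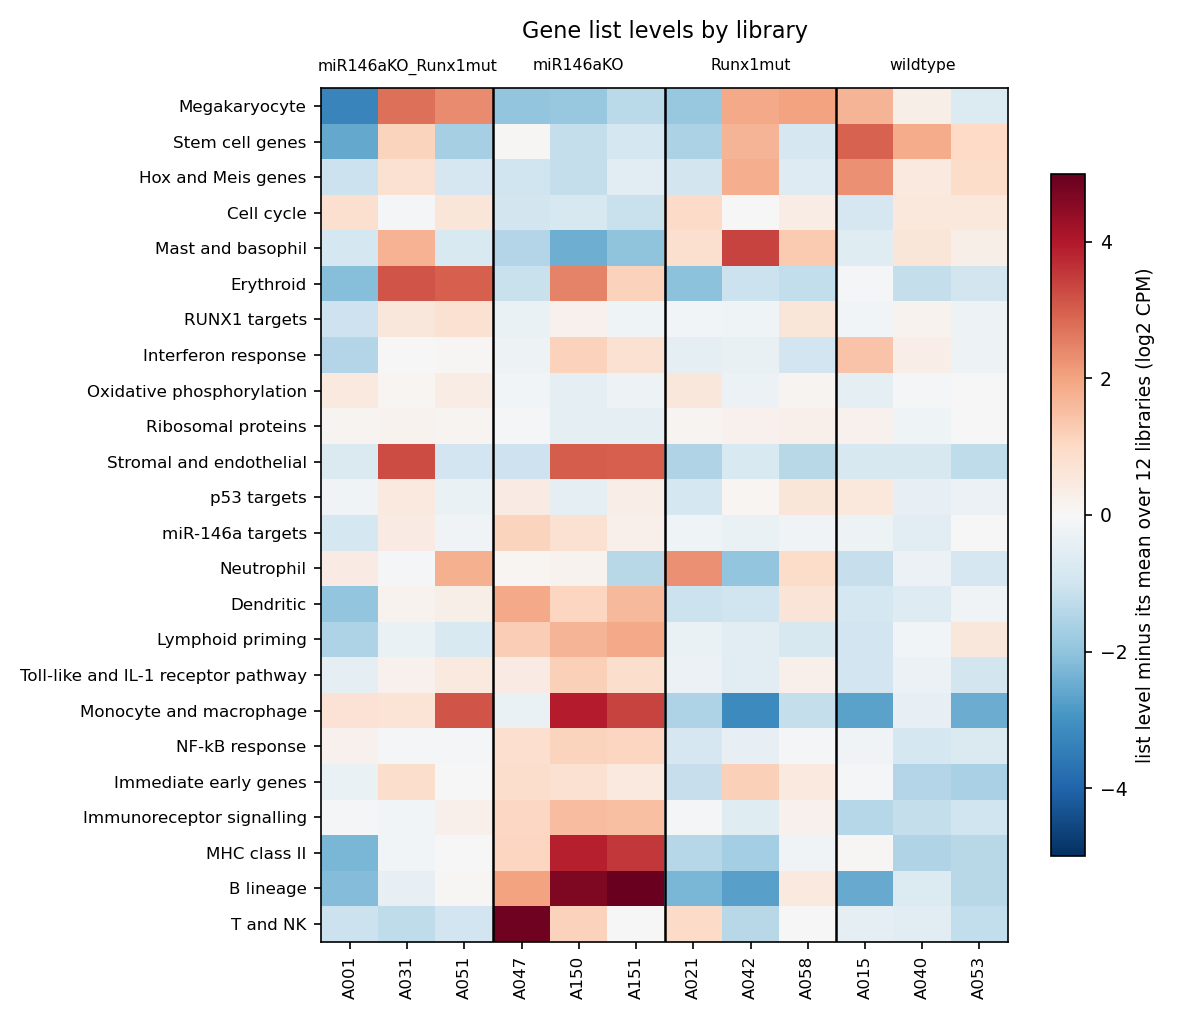
Level of each of 24 gene lists (rows, mean log2 CPM of tested members minus its mean over the 12 libraries, colour) in each library (columns, by group). B lineage and MHC class II are highest in miR146aKO, cell cycle is lowest there apart from A015 of wildtype, and megakaryocyte and stem cell genes differ between libraries of a group, with stem cell levels of 2.04 to 5.70 in the double genotype.

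The remaining lists lay nearer the median of all genes or rested on few libraries. Erythroid genes had 16 of 18 tested members (25 listed) on the positive side (median 0.96, and 2.69 without A150), with a level of 0.20, 5.5 and 5.35 in the double genotype, 1.24, 4.81 and 3.51 in miR146aKO, 0.30, 1.28 and 1.11 in Runx1mut and 2.30, 1.15 and 1.43 in wildtype. Interferon response genes had 23 of 36 on the positive side (median 0.36, and -0.18 without A051). Ifitm3, an interferon-induced membrane protein, had 255 ± 66.0 CPM in the double genotype, 168 ± 35.3 in miR146aKO, 97.8 ± 78.3 in Runx1mut and 679 ± 232 CPM in wildtype (SD, n = 3 each). Its interaction was 3.40 ± 0.85, and wildtype lay above all other libraries.
Ribosomal protein genes had 43 of 50 on the positive side with a median of 0.27 (0.10 without A015), oxidative phosphorylation genes 26 of 42 with 0.30 (-0.01 without A053), and p53 targets 8 of 19 tested (21 listed) with -0.24 (0.90 without A151). Mast cell and basophil genes had 3 of 6 tested (11 listed) on each side, with a median of 1.11 that was -2.84 without A031, and stromal and endothelial genes 7 of 15 tested (17 listed) on the positive side with a median of -0.14 that was -3.65 without A031 and 1.03 without A151. Hdc, the histamine-forming enzyme of mast cells and basophils, was at 43.6, 53.3 and 32.7 CPM in the double genotype, 33.2, 3.87 and 5.11 in miR146aKO, 135, 265 and 348 in Runx1mut and 3.01, 22.6 and 3.13 CPM in wildtype, an interaction of -3.08 ± 1.22 that was -1.46 without A047 and -4.68 without A040. For Hdc the Runx1mut libraries, not the miR146aKO libraries, lay above the other 9.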

How the data were processed

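RNA was measured in 12 libraries of sorted bone marrow cells, 3 per genotype. The authors deposited raw read counts per gene symbol. The submitters' processing notes name HISAT2 2.0.4, featureCounts 1.5.2, FastQC 0.11.2 and the mouse build mm10. The annotation release and strand setting were not given in the sources used here. Per the labels' protocols the cDNA was amplified with a NuGEN Ovation kit and made into Nextera XT libraries, which do not keep strand. Columns were tied to genotypes, not to numbered replicates, by a deposited table.

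The counts were fitted with edgeR 4.0.16 (R 4.3.3) by its quasi-likelihood test, TMM scaling, filterByExpr by group and 1 coefficient per genotype over all 12 libraries. The two-sided interaction contrast was miR146aKO_Runx1mut minus miR146aKO minus Runx1mut plus wildtype, with Benjamini-Hochberg adjustment over 12744 genes and calls under 0.05. The SE is the absolute log2 value over the square root of F. CPM uses TMM factors, and list levels are mean log2 CPM with a prior count of 2. Alternatives were RLE size factors, other filters, DESeq2 1.42.0, limma-voom 3.58.1, robust fitting, a Y-linked covariate, removal of Rn45s and leaving out each library. The code was tested on simulated data. Coordinates came from GENCODE M21 (GRCm38), in which 23376 symbols (95.7%) matched.

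Genes were named by rule: all called genes, the 8 uncalled genes of smallest p on each side with a mean log2 CPM of at least 2 and a gene name, the 2 of smallest p in each list, and Runx1, Mir146, Traf6, Irak1, Irak2, Kit and Ly6a. The second gene of a list is given only where it adds to the first. C1qb and Mir146b were added after their values were seen, and 1 result is not reported here. The comparison, the gene lists and this rule were chosen with earlier results of these data known.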

Additional observations from a re-analysis of the deposited data

Results flagged for a closer look

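In 3 genes the difference between genotypes was itself different between backgrounds, by the interaction test of edgeR with Benjamini-Hochberg adjustment over all tested genes. The log2 interaction was -13.41 for Cd2, -6.08 for Dok3 and -4.07 for Hvcn1, and in each the double genotype had lower values than miR146aKO while Runx1mut had higher values than wildtype. No explanation was tested.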

How the results depend on the processing

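The count of genes with a called interaction depended on the method. Without a low-count filter 268 genes were called (179 negative, 89 positive), with DESeq2 168 (108 negative, 60 positive), with a filter of at least 10 counts in 6 libraries 1 (Dok3, negative), and with limma-voom 0, with or without quality weights, where 1144 and 1400 genes had an unadjusted p under 0.05. RLE scaling, robust fitting and removal of Rn45s gave the same 3 genes. Leaving out 1 library gave 1 to 6 called genes, all negative, with 6 without A042 of Runx1mut and 1 or 2 otherwise. Each of these fits also repeated the low-count filter, and they tested 13349 to 13548 genes instead of 12744. Cd2 was called in each of these 12 fits and kept a negative interaction of -15.12 to -12.57, but had adjusted p of 0.0861 and 0.0724 by limma-voom and limma-voom with quality weights. With a Y-linked covariate 2 genes were called, Cd2 and Spib, and Dok3 (-5.50, adjusted p = 0.302) and Hvcn1 (-4.20, adjusted p = 0.344) were not. The filter of at least 10 counts in 6 libraries removed Cd2, and under it Hvcn1 had an interaction of -4.09 (edgeR, Benjamini-Hochberg adjusted p = 0.0562). No called gene changed the sign of its interaction under those of these alternatives in which it was tested, and the cause of the lost calls was not tested.

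The interaction of Runx1, near 0, was -0.014 with RLE scaling and with DESeq2, 0.27 with quality weights and 0.94 with the Y-linked covariate, and ran from -0.28 to 0.58 with 1 library left out. That of Irak1 ran from -0.031 to 0.55, that of Traf6 from 0.32 to 1.07, and the difference of the double genotype from Runx1mut for Hvcn1 from -0.54 to 0.012. The median interaction of all tested genes was -0.10 with quality weights and -0.14 without A031, and lay within 0.1 of 0 in the other fits. Of the lists, the median turned sign with the Y-linked covariate for miR-146a targets (0.0083), neutrophil genes (0.12) and stromal and endothelial genes (2.18), the last also under the filter of 10 counts in 6 libraries (1.31). It turned sign with limma-voom for interferon response genes (-0.19), mast cell and basophil genes (-0.16) and p53 targets (0.21). No paired analysis was possible because the columns of the count table carry no replicate numbers. With 3 libraries per genotype and 3540043 to 7026393 counts each, interactions within a few log2 units could not be told from 0 for most genes.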
